A study of Mus musculus with 2 samples.

Results

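Naive T cell quiescence and recirculation genes are described here by 9 genes, Foxo1, Foxo3, Klf2, S1pr1, Ccr7, Tcf7, Lef1, Satb1 and Bach2, of 20738 genes with a named probe on the arrays. All probes that the platform annotation assigns to these symbols were taken, which gave 14 of 55681 probes. Of the 9 genes 5 were read by 2 different probes and 4 by a single probe, and each probe occupied 1 spot. The series compared a culture labelled Gfi1 knockout with a culture labelled Gfi1 wild type, with 1 array each; GFI1 is a zinc-finger repressor of transcription. Both cultures came from C57BL/6 spleen. CD4 T cells of a naive surface type (among others low CD44 and no CD25) were enriched with an isolation kit, and both were cultured for 2 days on immobilised antibody against TCR-β (3 µg/ml), a chain of the T cell receptor, together with CD28 antibody (1 µg/ml), with 10 ng/ml of the growth factor IL-2, and with neutralising antibodies against IL-4 (5 µg/ml) and IFN-γ (5 µg/ml). RNA thus came from stimulated cultures, and no unstimulated sample is among the arrays analysed here. The sources used here give neither the Gfi1 allele, nor the cells in which it is lost, nor the number of animals per culture.

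Naive T cells rest in a state of quiescence and circulate between blood and lymphoid organs. The forkhead factors FOXO1 and FOXO3 are nuclear in resting cells and leave the nucleus when PI3K and AKT signal through the antigen receptor. FOXO1 supports expression of Klf2, and the zinc-finger factor KLF2 in turn binds the gene of the sphingosine-1-phosphate receptor S1PR1, through which T cells leave lymph nodes; CCR7 is the chemokine receptor that guides them in. TCF-1, encoded by Tcf7, and LEF-1 are related HMG-box factors of naive and memory T cells, SATB1 organises chromatin in thymocytes and T cells, and BACH2 is a repressor that restrains effector genes. Activation through the antigen receptor is known to lower several of these transcripts.

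The design has a single array for each genotype, so no test was made; values are given as signals in the authors' units and as log2 differences (knockout label minus wild-type label) after each array was scaled to the 75th percentile of its probes. A probe counted as detected above its array's median signal, 14.6 units in the knockout-labelled library and 14.2 units in the wild-type-labelled library. The Gfi1 probe itself read 18100 units in the knockout-labelled library and 4260 units in the wild-type-labelled library, a log2 difference of 2.05, which runs against the labels unless the probe lies outside the deleted part. That position is unknown here, and so libraries are named by their labels. Sex-linked transcripts also separated the libraries, with Eif2s3y, a Y-linked gene, at 3870 units under the knockout label and 2.91 under the wild-type label. The X-linked transcript Xist went the other way, with log2 differences of -4.98 to -4.91 over the scalings. A difference in sex between the cultures thus cannot be told apart from the label in any difference given here. The precision within arrays was taken from probes printed on 10 spots each, whose differences had a median SD of 0.35 at 15 to 50 units, 0.11 at 50 to 500, 0.05 at 500 to 5000 and 0.04 above. This spread leaves out the variation between cultures and animals.

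None of the 9 genes differed by 2-fold, and all 14 probes were detected on both arrays. Across all 13411 detected genes, 3.62% stood 2-fold or more above and 1.52% stood 2-fold or more below the wild-type-labelled library in the knockout-labelled one. At 1.5-fold, 1 of the 9 genes, Klf2, was lower and 0 were higher, where 4.25% of all genes were lower and 7.67% higher. Over all detected genes 5581 read higher and 7830 lower. Of the 9 genes 4 read higher (Satb1, S1pr1, Ccr7 and Lef1) and 5 lower (Klf2, Bach2, Tcf7, Foxo3 and Foxo1) in the knockout-labelled library. Their median was -0.11, beside -0.05 over all detected genes, and it was 0.0659 over 7 genes without the spots whose feature numbers exceed 50000. The absolute difference was above the median of all genes, 0.18, for 5 members (Klf2, Satb1, Bach2, Tcf7 and Foxo3) and below it for 4. Foxo3 was above it only through a probe near the detection limit, while its brighter probe gave -0.05. A gene of a bulk culture can read lower through fewer cells of a type or through less RNA per cell, and these cannot be told apart.

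**Figure D1:**
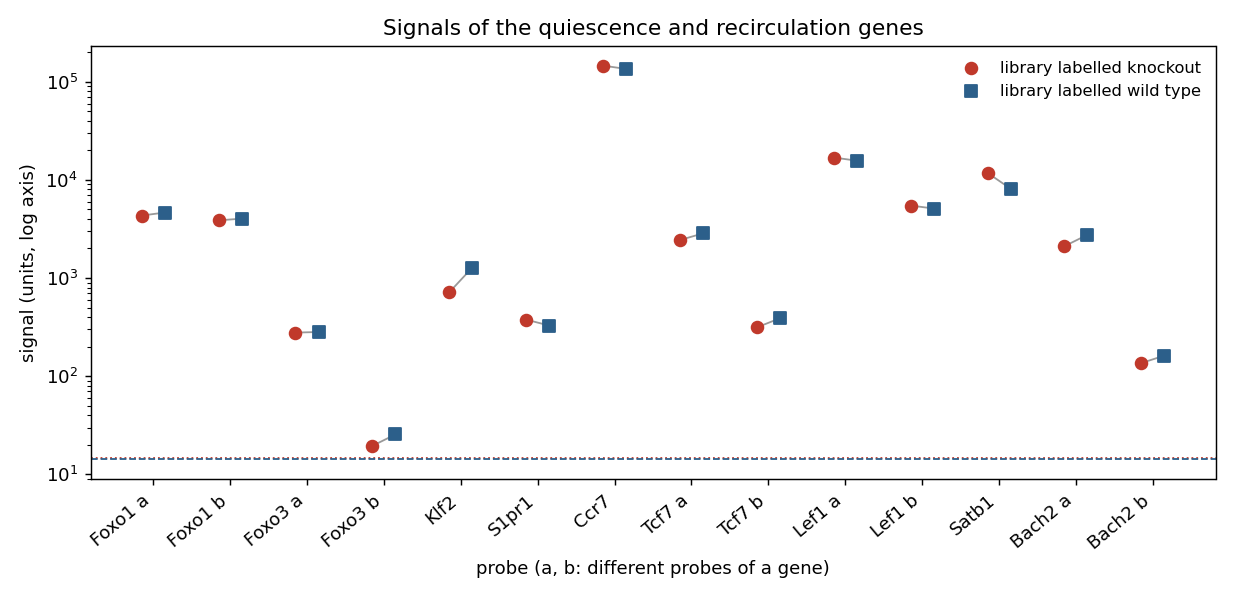
Signals of the 14 member probes on a log axis, in the knockout-labelled library (red circles) and the wild-type-labelled library (blue squares), with the median of all probes of each array as a dotted or dashed line. The lines between symbols are short except for Klf2 (715 against 1280 units) and Satb1 (11800 against 8130 units); levels of different probes are not comparable.

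**Figure D2:**
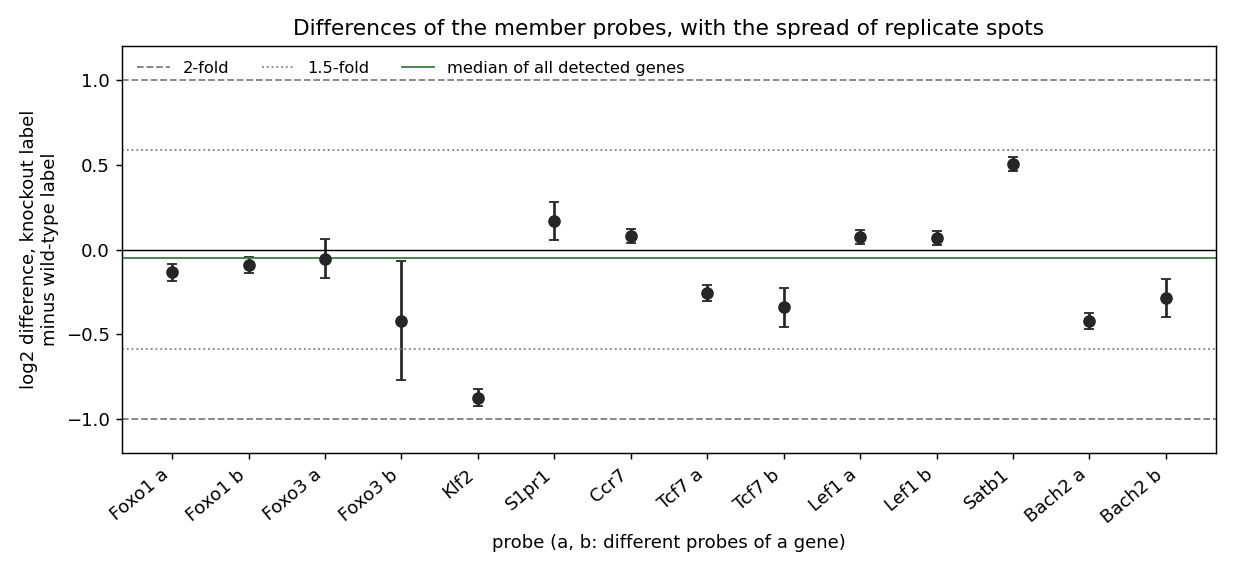
Log2 difference of each member probe (knockout label minus wild-type label), with bars showing the median SD over replicate spots at that signal level and not a spread between samples. Klf2 lies at -0.87 below the 1.5-fold line, Satb1 at 0.50 just inside it, and the second Foxo3 probe has the widest bar.

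Klf2 was the member with the largest difference. Its single probe (A_51_P144264) read 715 units in the knockout-labelled library and 1280 units in the wild-type-labelled library. This is a log2 difference of -0.87, or 1.83-fold lower, beside a spot spread of 0.05 at this level. Of all 13411 detected genes 262 (1.95%) stood as low or lower. Of the 6831 genes with 500 units or more on either array, 1.17% were lower by 1.5-fold or more. The Klf2 spot has a feature number above 50000; of spots of 500 units or more, 2.45% in that range and 1.91% at lower numbers differed by 2-fold. Of spots of 50 to 500 units, 18.8% in that range and 5.79% at lower numbers did. Because Klf2 has no other probe, its value has no second reading on these arrays.

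The 250 bases before the Klf2 start are shown because Klf2 was the member that differed most and its promoter is known for an element bound by MEF2 factors, which act downstream of the kinase ERK5. The sequence is from RefSeq, build GRCm38.p6, chr8:72318812-72319061, plus strand, and the capitals mark the MEF2 core TAAATTTA, which starts 117 bases before the gene's start and reads the same on both strands.
Klf2: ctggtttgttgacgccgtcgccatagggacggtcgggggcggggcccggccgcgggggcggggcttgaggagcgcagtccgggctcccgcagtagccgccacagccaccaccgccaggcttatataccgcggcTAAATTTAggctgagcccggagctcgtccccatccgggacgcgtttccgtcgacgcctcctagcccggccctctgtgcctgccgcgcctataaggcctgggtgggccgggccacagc
This core was found in 0.50% of 32841 promoter windows of the same length, and among the 15 windows held for 7 of the members in 1, that of Klf2. The promoters of S1pr1 and Ccr7 were not analysed here. The FOXO motif GTAAACA, searched on both strands, was in 0 of the 15 member windows and in 3.17% of all windows. The KLF motif CCACCC was in 8 of the 15 windows, those of 4 members, and in 28.1% of all windows, while windows of 1 gene can overlap. The TCF and LEF motif ATCAAAG and the BACH and AP-1 motif TGANTCA were in 0 of the 15, against 3.21% and 6.75% of all windows. No match says only that these letters are not in these windows.

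The upstream FOXO factors differed little. Foxo1 was read by 2 probes, at 4330 and 3870 units in the knockout-labelled library against 4650 and 4030 units in the wild-type-labelled library. The differences were -0.14 and -0.09 (mean -0.11, SD 0.03 over 2 probes), so that both probes were slightly dimmer under the knockout label. Both Foxo1 spots have feature numbers above 50000. Foxo3 read 278 units under the knockout label and 282 under the wild-type label on its brighter probe, a difference of -0.05. Its other probe was close to the detection limit, at 19.5 units under the knockout label and 25.5 under the wild-type label, and gave -0.42 with a spot spread of 0.35. The Foxo3 mean of -0.24 (SD 0.26 over 2 probes) thus rests on the dim probe, and the brighter probe alone gives -0.05.

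Kinases and other genes of the FOXO pathway were close to 0 as well. Of 17 listed genes 14 were detected, 7 higher and 7 lower, with a median of 0.00 that crossed 0 with scaling, as that of all genes did. Akt1, which encodes a kinase that phosphorylates FOXO proteins, stood at 0.06, and Pik3cd, the p110δ catalytic subunit of lymphocytes, at -0.03 with a sign that changed under other scalings. The member past 2-fold was Sgk1, a kinase that also phosphorylates FOXO proteins, with 110 units under the knockout label and 50.9 under the wild-type label (log2 1.08). Foxp1, a forkhead factor of quiescent T cells that opposes FOXO1 at Il7r, stood at -0.28 ± 0.11 (SD over 4 probes).

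Genes known as FOXO targets differed in both directions. Of 22 listed genes 20 were detected, 7 higher and 13 lower, with a median of -0.02 that crossed 0 under cyclic loess. Past 2-fold were Il7r, the IL-7 receptor alpha chain of naive cells, at 946 units under the knockout label and 350 under the wild-type label (log2 1.40), and Bcl2l11, which encodes the pro-apoptotic protein BIM, at 255 units under the knockout label and 592 under the wild-type label (log2 -1.25). Fbxo32, a ubiquitin ligase subunit, stood at -0.74 and Sesn1, a stress-inducible inhibitor of mTORC1 signalling, at -0.66. Irs2, an insulin receptor substrate, stood at 0.82 and Bnip3, a mitophagy receptor, at 0.86 ± 0.08 (SD over 3 probes). Il7r and Klf2, both known as targets of FOXO1, thus lay on opposite sides of 0.

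**Figure D3:**
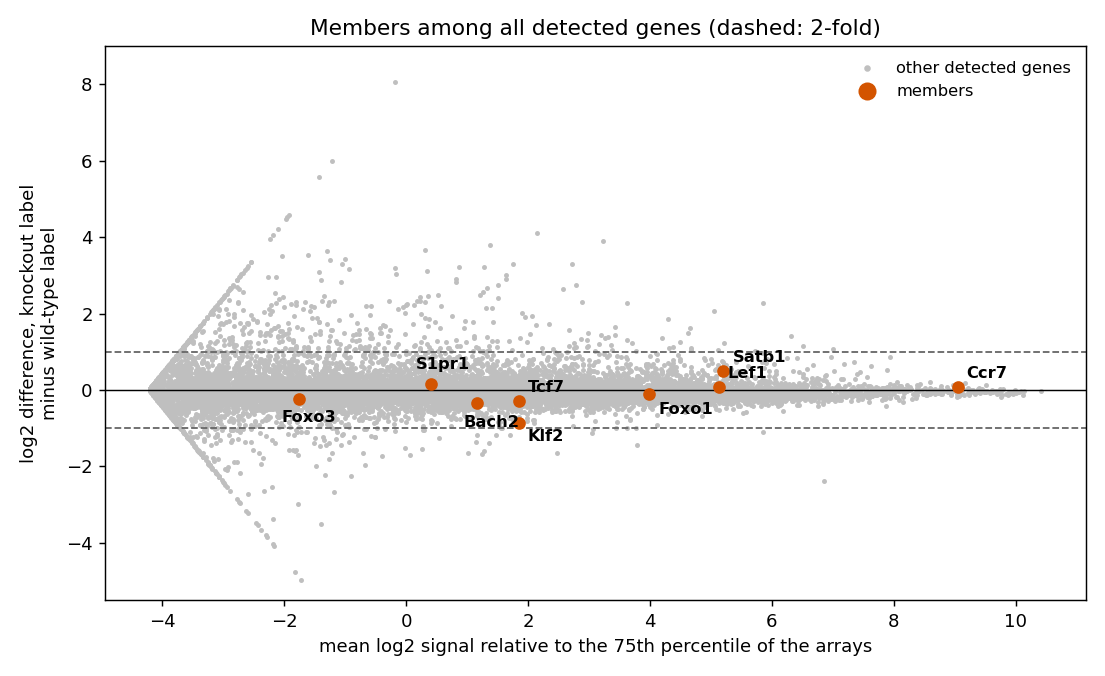
Log2 difference against mean log2 signal for the 13411 detected genes (grey) and the 9 members (orange), with dashed lines at 2-fold; the diagonal edges are genes undetected on 1 array. All members lie between the dashed lines, and Klf2 at -0.87 is nearest to one.

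The homing receptors read slightly higher in the knockout-labelled library. S1pr1, the receptor for egress along the sphingosine-1-phosphate gradient, read 377 units in the knockout-labelled library and 328 units in the wild-type-labelled library. The difference was 0.17 (1.12-fold), beside a spot spread of 0.11 at this level. Of all detected genes 22.7% stood as high or higher. Ccr7 read 146000 units under the knockout label and 135000 units under the wild-type label, a difference of 0.08 (1.06-fold). These are among the bright signals of arrays whose highest values were 363000 units under the knockout label and 361000 under the wild-type label, and the files used hold no saturation flags. S1pr1 stood 1.04 and Ccr7 0.95 above Klf2 on the log2 scale, and both receptor transcripts lay on the other side of 0 from Klf2.

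Other genes of sphingosine-1-phosphate signalling and lymphoid homing were mixed. Of 20 listed genes 17 were detected, 10 higher and 7 lower, with a median of 0.17 that became -0.04 over 11 genes with a floor at the 75th percentile. Among the receptors related to S1pr1, S1pr4 stood at -0.40 (268 units under the knockout label and 345 under the wild-type label) and S1pr2 at -0.26 (161 units under the knockout label and 189 under the wild-type label). The S1pr4 spot lies above feature number 50000, in the signal range of 50 to 500 units where such spots more often differed by 2-fold, as given for Klf2. S1pr3 stood at 0.97 on a dim probe (64.3 units under the knockout label and 32.1 under the wild-type label). Cd69, whose protein binds S1PR1 and removes it from the cell surface, stood at 0.22 (1080 units under the knockout label and 904 under the wild-type label). Past 2-fold was Cxcr5, the chemokine receptor for B cell follicles, at 130 units under the knockout label and 58.2 under the wild-type label (log2 1.13). Itga4, the alpha-4 integrin chain, stood at -0.60 ± 0.05 (SD over 2 probes) and its partner Itgb7 at 0.20. Itgal, the alpha chain of LFA-1, stood at -0.13 ± 0.07 (SD over 3 probes).

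Tcf7 and Lef1, which encode related HMG-box factors, lay on opposite sides of 0. Tcf7 was read by 2 probes, at 2440 and 314 units in the knockout-labelled library against 2850 and 389 units in the wild-type-labelled library. The differences were -0.26 and -0.34 (mean -0.30, SD 0.06 over 2 probes), or 1.23-fold lower. The dimmer Tcf7 spot also lies above feature number 50000 at 50 to 500 units, and the brighter one does not. Lef1 read 16900 and 5480 units under the knockout label against 15700 and 5110 units under the wild-type label. Its probes gave 0.07 each (SD 0.00 over 2 probes). The means of the 2 genes were 0.37 apart on the log2 scale, and probes on the same arrays are no replicates of a culture. Of all detected genes 14.2% stood as low as Tcf7 or lower and 31.8% as high as Lef1 or higher.

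Partners and targets of these factors had a median of 0.05 over 17 detected genes of 19 listed, 9 higher and 8 lower, and this median became -0.04 with the brightest probe per gene. Myb, a transcription factor of stem-like T cells, was the lowest, at 2340 units under the knockout label and 4540 under the wild-type label (log2 -0.99). Il6ra, the IL-6 receptor alpha chain of naive cells, stood at 0.87 (4420 units under the knockout label and 2370 under the wild-type label). The corepressor gene Tle1 was past 2-fold at 1.04 ± 0.65 (SD over 3 probes), with 2 of the 3 probes on spots above feature number 50000. Slamf6, a surface receptor of stem-like T cells, stood at -0.38 ± 0.16 (SD over 2 probes, both above feature number 50000) and Tox, an HMG-box factor, at -0.33. Ctnnb1, which encodes the coactivator beta-catenin, stood at -0.11, and Id3, an inhibitor of E proteins, at 0.44 on a spot above feature number 50000.

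Satb1 was the member with the largest positive difference. Its probe read 11800 units in the knockout-labelled library and 8130 units in the wild-type-labelled library, a difference of 0.50 (1.42-fold) beside a spot spread of 0.04. Of all detected genes 9.04% stood as high or higher. Satb1 and Klf2 were 1.38 apart on the log2 scale, the widest distance between members. Genes of known SATB1 partners and relatives had a median of 0.01 over 8 genes of 10 listed, with 4 higher and 4 lower, and it became -0.14 with a floor at the 75th percentile. Bptf and Smarca5, subunits of chromatin remodellers, stood at -0.17 and -0.29, and Pml, the scaffold of nuclear bodies and an interferon-induced gene, at 0.79 ± 0.07 (SD over 2 probes).

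Among the 7 members in the promoter table, Satb1 was the one whose windows held AAATCA, a form of the AATC core that GFI1 is known to bind, searched on both strands. The shorter core AATC, read on both strands, also stands in windows of other members, among them those of Foxo1 and Bach2. Satb1 had 5 of the 15 windows, the most of any member. The windows came from 5 RefSeq starts of Satb1, 3 of them with a match, and 2 of these windows overlap and share their match, which leaves 2 separate places. Both are shown as 30 bases on the minus strand of GRCm38.p6, with the reverse complement of the motif in capitals, at chr17:51826598-51826627 and chr17:51812264-51812293.
Satb1 first: agagctatgaccTGATTTgtggcgcaccct
Satb1 second: tcttgtccgcagTGATTTttttccttcttt
The motif was in 12.4% of all 32841 windows and in 3 of 15 member windows. Such a match is a description of the letters and was not tested for binding.

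Bach2 read lower on both of its probes. They gave 2110 and 136 units in the knockout-labelled library against 2760 and 162 units in the wild-type-labelled library. The differences were -0.42 and -0.28 (mean -0.35, SD 0.10 over 2 probes), or 1.28-fold lower, and 10.8% of all detected genes stood as low or lower. Satb1 and Bach2 were 0.86 apart. The related repressor gene Bach1 stood at 0.07.

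Partners of BACH2 and genes it is known to repress were mostly higher in the knockout-labelled library. Of 19 listed genes 17 were detected, 14 higher and 3 lower, with a median of 0.31 and 4 genes past 2-fold on the higher side. Of all detected genes 3.62% were 2-fold or more higher and 1.52% lower. The cytokine gene Ifng read 4944 units under the knockout label and 279 under the wild-type label (log2 4.11). Gzmb, which encodes granzyme B, read 34000 units under the knockout label and 6900 under the wild-type label (log2 2.27). Maff, a small MAF protein of the kind that pairs with BACH factors, stood at 1.74 on a dim probe (74.8 units under the knockout label and 21.9 under the wild-type label), and the AP-1 gene Jun at 1.05. Prdm1, the gene of BLIMP-1 and a known BACH2 target, stood at 0.79 on a dim probe (46.2 units under the knockout label and 26.1 under the wild-type label). Junb and Jund, AP-1 genes whose proteins share DNA sites with BACH2, stood at 0.31 and -0.27. The list was drawn up with earlier results of these arrays known, so its direction is no independent evidence. CD8 T and NK cell markers moved with Ifng and Gzmb, as given below, and their part was not tested.

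Relatives of KLF2 and other quiescence regulators are given for comparison with Klf2. Of 10 other KLF genes 9 were detected, 5 higher and 4 lower, with a median of 0.05 and 0 past 2-fold. The highest were Klf6, an immediate-early member, at 0.69 (22400 units under the knockout label and 13600 under the wild-type label), and Klf7 at 0.49. The Klf6 spot lies above feature number 50000. Klf4, which like Klf2 restrains T cell cycling, read 1030 units under the knockout label and 1010 under the wild-type label, a scaled difference near 0 whose sign changed with scaling, and Klf3 stood at -0.08. The lowest of the 9 was Klf9 at -0.17, on a spot above feature number 50000 (262 units under the knockout label and 288 under the wild-type label). Klf2 thus lay below the 9 relatives detected at this floor, where Klf12 was not detected on either array. With a floor at the 25th percentile or with no filter, all 10 relatives had a value and 1 was 2-fold or more lower. Among quiescence regulators all 20 were detected, 7 higher and 13 lower, with a median of -0.13 and 0 past 2-fold. Of all 13411 detected genes 5581 read higher and 7830 lower, with a median of -0.05. At 2-fold or more, 3.62% of them were higher and 1.52% lower. Tsc1, which restrains mTORC1 in quiescent T cells, stood at -0.40 (737 units under the knockout label and 948 under the wild-type label), and Vsir, the receptor VISTA, at -0.37 ± 0.12 (SD over 2 probes). The antiproliferative genes Tob1 and Btg2 stood at -0.29 and -0.25, Btg2 on a spot above feature number 50000. Btg1 stood at 0.10 ± 0.28 (SD over 2 probes, with a sign that changed with the choice of probe), and Slfn2 at 0.20. The highest of the 7 higher genes were Cdkn1a at 0.51 ± 0.47 (SD over 3 probes), Peli1 at 0.38 and Elf4 at 0.37 on a dim probe. Tsc2 stood at -0.88 and rests on a dim spot above feature number 50000 (20.5 units under the knockout label and 36.9 under the wild-type label).

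**Figure D4:**
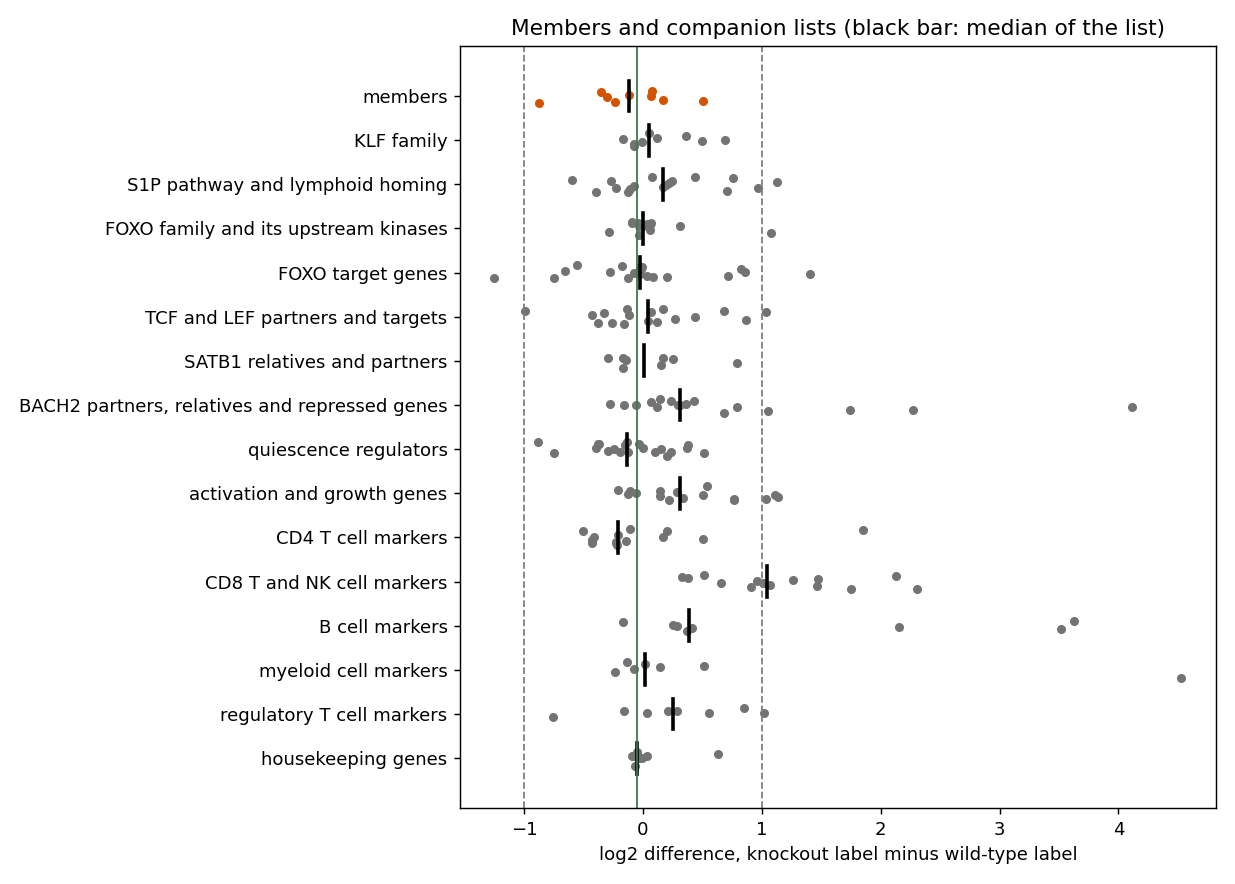
Log2 difference of each detected gene of the 9 members (orange, top) and of 15 companion lists (grey), knockout label minus wild-type label, with the list median as a black bar, the median of all detected genes as a green line and 2-fold as dashed lines. The members span -0.87 to 0.50, and the list of CD8 T and NK cell markers has the highest median, 1.04.

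The labelled cell type was checked against marker lists, since B cells and CD8 T cells also express several of the 9 genes. Of 16 CD4 T cell markers 14 were detected, with a summed signal of 267987 units in the knockout-labelled library and 288365 units in the wild-type-labelled library; 4 read higher and 10 lower, and their median was -0.21. Cd4 stood at -0.14 ± 0.03 (SD over 2 probes) and Cd3e at -0.43, while the T cell surface genes Cd2 and Thy1 stood at 0.51 and 0.21. The one past 2-fold was Cd247, the zeta chain of the receptor complex, at 1.85, with differences of 0.45 and 3.25 on its 2 probes, 1 of them above feature number 50000. All 14 listed CD8 T and NK cell markers read higher, 8 of them by 2-fold or more (3.62% of all detected genes). Their summed signals were 6181 units under the knockout label and 2609 under the wild-type label. Cd8a, Klrk1, Klrb1c, Klrg1 and Ncr1 were below the floor under the wild-type label, so that the filter fixed their direction. With probes detected on both arrays 9 genes remained, all higher by 1.5-fold or more and 7 by 2-fold or more. The brightest of the list under the knockout label were Nkg7 (2076 units, against 968 under the wild-type label), Eomes (1843 against 649) and Prf1 (814 against 504). Cd8b1 read 244 against 127. Which cells expressed these genes was not tested. Of 12 B cell markers 8 were detected, 7 higher and 1 lower, with Ebf1 below the floor under the wild-type label. Their summed signals were 1277 units under the knockout label and 558 under the wild-type label. Pax5 and Blk were not detected on either array. The 3 B cell markers past 2-fold were Blnk, an adaptor of the B cell receptor (386 units under the knockout label and 30.6 under the wild-type label, log2 3.62), Ms4a1, the gene of CD20 (221 units under the knockout label and 18.9 under the wild-type label, log2 3.52), and Fcer2a, the gene of CD23 (142 units under the knockout label and 31.1 under the wild-type label, log2 2.16). The other 5 summed to 528 units under the knockout label and 478 under the wild-type label. Of 12 myeloid markers 7 were detected, 4 higher and 3 lower with a median of 0.01, and Lyz2, Cd14 and Itgax were not detected. Their summed signals were 678 units under the knockout label and 352 under the wild-type label. Of the 7, 4 were below the floor on 1 array, so that the filter fixed their direction. With probes detected on both arrays 3 genes remained, with a median of -0.07. Mpeg1, a gene of macrophages and some B cells, read 335 units under the knockout label and 11.7, below the floor, under the wild-type label (log2 at least 4.53), and the other 6 summed to 343 units under the knockout label and 341 under the wild-type label. The part of other cells in the values of the 9 genes was not tested.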

How the data were processed

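RNA of each culture (100 ng) was amplified and labelled for a 1-colour array, per the labels' protocols, and read with Agilent Feature Extraction 11.5.1.1, per the submitters' processing notes. The authors deposited an intensity per spot (linear, background correction not given in the sources used here, no flags). A second deposited table served as an alternative. The median ratio of its values to these intensities was 2.26 for the knockout-labelled library and 2.27 for the other. Probe values are mean log2 signals over spots minus the array's 75th percentile. A probe had to exceed the array median on at least 1 array, an undetected side was set to that floor, and a gene is the mean over its detected probes; signals quoted for genes with several probes are geometric means. Symbols came from the platform annotation, updated through RefSeq (GRCm38.p6). Gene SDs are over probes. Promoter windows are RefSeq's.

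The members, the 15 companion lists and the alternatives were chosen with earlier results of these data known. The text names every member, Gfi1 and a part of the companion genes past 2-fold or of the largest differences. Other list genes, Eif2s3y, Xist and the motifs were chosen with values known. Lists share genes. With 1 array per genotype no test was made. The steps were tested on simulated data. Tools were matplotlib 3.10.9, statsmodels 0.14.6, pandas 2.3.3, numpy 2.4.6 and Python 3.11.15.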

Additional observations from a re-analysis of the deposited data

Results flagged for a closer look

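Probes without a gene name lie outside the comparisons above and are given for that reason. Among 11485 of them that were detected, 349 stood 2-fold or more above and 267 stood 2-fold or more below the wild-type-labelled library in the knockout-labelled one.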

How the results depend on the processing

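No paired analysis was possible because each genotype has 1 array. Each of the 9 genes kept its sign under every alternative that gave a value (up to 13: scaling, floor, probe choice, offset, value table and spots left out), and none reached 2-fold. Klf2 ranged from -0.88 to -0.81 and Satb1 from 0.50 to 0.56; Klf2 and Foxo1 have no value without spots above feature number 50000. The median of the members, near 0, was -0.0524 with cyclic loess, -0.0532 both for a 75th percentile floor and for the brightest probe, and 0.0659 without spots above 50000; it was -0.175 when S1pr1, Ccr7, Lef1 or Satb1 was left out and -0.0211 when Klf2, Foxo3, Tcf7 or Bach2 was. At 1.5-fold 1 member was lower. Over all genes, 980 were 2-fold higher and 634 lower for a floor at the 25th percentile, 136 and 20 for one at the 75th, 1004 and 638 with no filter, 1029 and 570 at 1.5-fold, and 215 and 87 at 3-fold. The count of lower genes was 125 with probes detected on both arrays, 117 with an offset of 16 units and 105 without spots above 50000. Fewer or more dim genes enter under these floors. Of the companion lists, the medians of B cell markers (0.21 to 2.15), CD8 T and NK markers (0.86 to 1.47) and myeloid markers (-0.08 to 0.25) varied most. Signal near the floor limits the second Foxo3 probe.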

Other observations

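Genes of T cell activation and growth were mostly higher in the knockout-labelled library, with 12 of 16 higher, 3 by 2-fold or more, and a median of 0.31; over all detected genes 5581 of 13411 were higher, 3.62% by 2-fold or more. Markers of other cells moved the same way, with 14 of 14 CD8 T and NK cell markers (median 1.04) and 7 of 8 B cell markers higher. Of these, 5 CD8 T and NK cell markers and 1 B cell marker were below the floor under the wild-type label, which fixed their direction. With probes detected on both arrays, 9 CD8 T and NK cell markers (median 1.46) and 7 B cell markers (median 0.41) remained. The part of other cells was not tested. Irf4, a factor whose level follows receptor signal strength, read 9780 units under the knockout label and 4650 under the wild-type label (log2 1.04), and Myc, the growth regulator, 6279 units under the knockout label and 4335 under the wild-type label (log2 0.50). The proliferation marker Mki67 stood at -0.21 ± 0.10 (SD over 2 probes) and the transferrin receptor gene Tfrc at -0.13 ± 0.13 (SD over 3 probes). Of 8 regulatory T cell markers 6 were higher and 2 lower, with a median of 0.25, and Foxp3, their defining factor, read 85.8 units under the knockout label and 56.9 under the wild-type label. Housekeeping genes had a median of -0.05 over 9 genes, with B2m, a subunit of MHC class I, the highest at 0.64, and all genes had the same median; both medians crossed 0 under other scalings.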
